A study of Homo sapiens with 9 samples.

Results

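This comparison set one knockout clone of a Hodgkin lymphoma cell line against another. Clone g2_1 and clone g3_4 were both derived from L-1236 by Cas9 targeting of LTA, the gene of lymphotoxin alpha. All 3 arrays of each clone were taken by their labels, which gives 6 of the 9 arrays of the study, and all 20893 transcript clusters of the array were compared. The clones were compared in 3 pairs, array 1 with array 1 and so on, by the replicate number in the titles.

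Clone g2_1 carried a lentiCRISPR v2 vector with guide g2, aimed at exon 2 of LTA. In clone g3_4 the same vector carried guide g3, aimed at exon 4. The remaining 3 arrays were of L-1236 control cells called v2 in the labels and wild type in the titles. They did not enter the main comparison. They served to say which clone departed from the control and to set the distance between the clones beside that from the control. Some alternative fits also included them. Each knockout is 1 single-cell clone, so a difference may belong to the guide or to the clone, and these cannot be told apart. Both clones were maintained in conditioned medium of L-1236 and, like the control, spent the last 72 h before lysis in normal medium. Whether the control was itself a clone is not stated in the labels. Neither is it stated that the arrays of 1 group are separate cultures, so p-values here reflect only the spread of these arrays, and that may be technical.

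L-1236 is a line of Hodgkin and Reed-Sternberg cells, which come from B cells but have lost much of the B cell programme. Lymphotoxin alpha is a secreted cytokine of the TNF superfamily that acts through TNF receptors and, together with lymphotoxin beta, through the lymphotoxin beta receptor. Because single cells of a tumour line can differ in gene expression and in chromosome copies, clones with the same target are not copies of each other.

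The label of the line was checked against its markers. TNFRSF8, which encodes the Hodgkin cell antigen CD30, had a mean log2 value of 11.89 in g2_1, 11.81 in g3_4 and 11.11 in the control. The list of Hodgkin cell genes, 28 of them measured, did not follow it. Its median difference from the control was -0.308 in g2_1 and -0.295 in g3_4. Its sum on the linear scale overlapped between groups, at 33614 to 35098 in g2_1, 34203 to 35141 in g3_4 and 33083 to 35257 in the control. The B cell gene MS4A1 (CD20) lay under the first quartile of the clone arrays (4.64) in all groups, at 4.39, 4.40 and 4.38. PAX5 had 6.52, 6.48 and 7.31. Of the 29 measured B cell genes, 6 lay under that quartile on all 6 clone arrays. Summed on the linear scale, the list had 15325 to 15830 in g2_1, 14928 to 15791 in g3_4 and 10670 to 14212 in the control. As a whole it was thus not lower in the clones. Unless given as linear, values are log2 signals after RMA, so a difference of 1 is a change of 2-fold. Their median was 6.15 to 6.19 on the clone arrays and 6.27 to 6.29 on the control arrays. Control array 1 stood apart. It differed by at least 1 log2 unit from the other control arrays in 539 and 657 transcript clusters, against 31 between those other arrays. The RNA integrity number was 10 for array 1 of every group and 9.5 to 9.6 for the others, so it did not differ between the clones by more than 0.1 within a pair.

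Far fewer transcript clusters differed by 1 log2 unit between the clones than between a clone and the control. Same-numbered arrays of g2_1 and g3_4 differed by at least 1 log2 unit in 37 to 51 transcript clusters. Arrays with other numbers differed in 42 to 158, arrays within g2_1 in 13 to 64 and arrays within g3_4 in 2 to 67. The distance between the clones was of the same order as that between arrays of 1 clone. A clone array and a control array differed in 744 to 1723. The median absolute difference over all transcript clusters was 0.12 to 0.13 between same-numbered arrays of the clones, 0.11 to 0.16 within a clone, 0.14 to 0.20 within the control and 0.17 to 0.24 between a clone and the control, ranges that overlap in part.

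**Figure D1:**
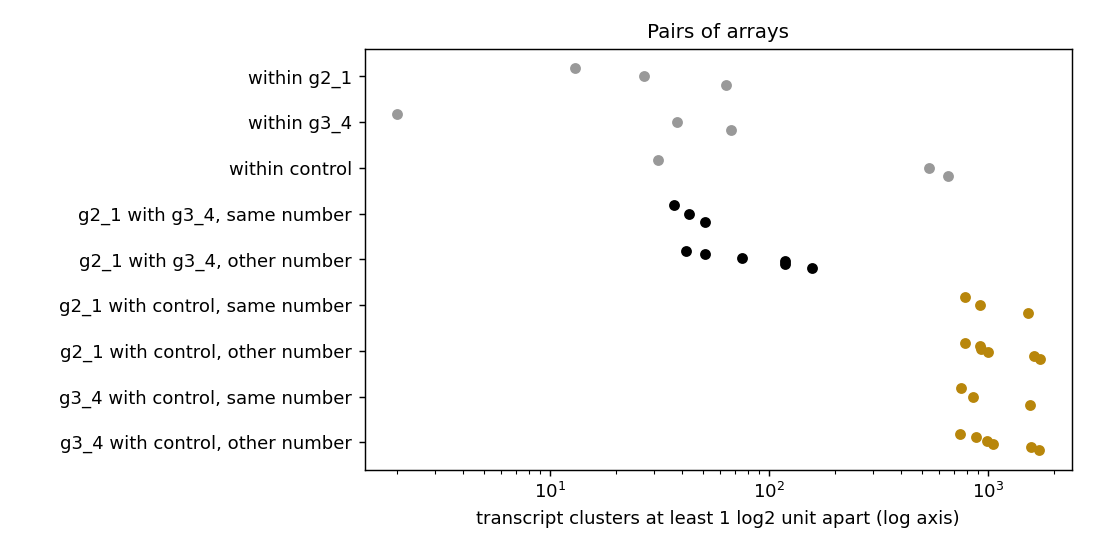
Number of transcript clusters at least 1 log2 unit apart (horizontal log axis) for every pair of arrays, 1 point a pair, in rows by which groups the arrays come from. Same-numbered arrays of the clones lie at 37 to 51, within the range of arrays of 1 clone, and every pair of a clone with a control array lies at 744 or more.

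Between the clones 23 of 20893 transcript clusters were called, which is 0.11%. A call needed an adjusted p under 0.05 (limma, replicate number as a block, Benjamini-Hochberg over all transcript clusters) and a difference of at least 1 log2 unit. Of these, 16 (0.0766%) were higher in g3_4 and 7 (0.0335%) higher in g2_1. On the same 6 arrays without the block 18 were called, and with any 1 of the 3 pairs left out 0 were, although the 23 kept their direction and 1570 to 1651 transcript clusters then had an unadjusted p under 0.05. With no limit on the difference 66 passed (0.316%), 41 (0.196%) higher in g3_4 and 25 (0.12%) higher in g2_1. Against the control, 873 (4.18%) were called in g2_1 and 884 (4.23%) in g3_4, in a fit without the block. The 66 had the same sign in all 3 pairs, and in 60 of them no array of one clone overlapped the other. Over all transcript clusters the arrays of the clones did not overlap in 11.5%, with g2_1 higher in 5.99% and g3_4 higher in 5.55%. At an unadjusted p under 0.05 there were 2321 (11.1%), 5.78% higher in g2_1 and 5.33% higher in g3_4.

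The differences were of degree. A gene counted as switched where all 3 arrays of one group lay at 8 or more and all 3 of the other under the first quartile, and no gene did so between the clones. By that measure 17 genes were switched between g2_1 and the control and 24 between g3_4 and the control. The median difference over all transcript clusters was 0.00 (SD 0.16), and 29 reached 1 log2 unit, 8 higher in g2_1 and 21 higher in g3_4. Against the control 898 did so in g2_1 and 907 in g3_4. Of the 29, the 6 that were not called were MACC1, MAP1B, SCN9A, CD38 and 2 without a symbol. These names were taken after their values were seen. MACC1, a regulator of the receptor gene MET, read 5.07, 5.32 and 5.79 in g2_1 and 7.55, 6.38 and 7.31 in g3_4, a difference of -1.69 (SE 0.25, adjusted p = 0.105 in limma).

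LTA, the targeted gene, was low in both clones. Its log2 value was 7.97, 7.53 and 7.11 on the g2_1 arrays, 6.94, 7.25 and 6.61 on the g3_4 arrays and 11.58, 11.07 and 11.08 on the control arrays. The clone arrays overlapped, while every clone array lay below every control array. The 3 pairs gave 1.03, 0.28 and 0.50, all higher in g2_1, with a mean of 0.60 (SE 0.15). This did not pass (adjusted p = 0.243 in limma). An exact permutation test of 3 against 3 arrays, two-sided, gave p = 0.20, where 0.1 is the smallest that the 20 splits can give. The position of the probes within LTA was not used here, and an edited transcript need not fall in level.

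The largest difference with g2_1 higher was in a ligand of the same superfamily. CD70, the membrane-bound ligand of the receptor CD27, read 11.30, 11.53 and 11.46 on the g2_1 arrays and 8.41, 9.40 and 9.43 on the g3_4 arrays. The control arrays read 9.61, 10.37 and 10.08, so g2_1 was above the control on every array and g3_4 below it. CD70 was 5.10-fold higher in g2_1 than in g3_4, a log2 difference of 2.35 (SE 0.17, adjusted p = 0.0197 in limma). Since RNA of whole cultures was measured, fewer expressing cells and less RNA per cell cannot be told apart here or below. CD27 itself was near the floor of the clone arrays, at a mean of 4.70 in g2_1 and 4.90 in g3_4, and did not pass (adjusted p = 0.515).

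IL7R, the alpha chain of the interleukin 7 receptor, which is also part of the receptor for TSLP, came next. It read 8.25, 7.44 and 7.07 in g2_1, 5.87, 5.11 and 5.15 in g3_4 and 6.99, 6.66 and 6.63 in the control. Here too the clones lay on opposite sides of the control with no overlap. The difference was 2.21 (SE 0.11, adjusted p = 0.00347 in limma). CRLF2, the other chain of the TSLP receptor, which was chosen after its values were seen, differed in the other direction. It read 8.34, 7.95 and 7.93 in g2_1 and 9.34, 8.85 and 8.93 in g3_4, a difference of -0.97 (SE 0.07, adjusted p = 0.0197, 0.0829 without the block). The common gamma chain gene IL2RG, with which IL7R pairs for interleukin 7, had means of 12.05 and 12.13 and did not pass (adjusted p = 0.751).

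HBEGF, a growth factor of the EGF family, read 7.27, 7.66 and 6.93 in g2_1 and 5.66, 5.78 and 5.88 in g3_4. The control read 5.53, 4.94 and 5.55, so g3_4 stayed near it and g2_1 was well above. The difference was 1.51 (SE 0.16, adjusted p = 0.0412 in limma). The other called genes higher in g2_1 were SHLD1, a subunit of the shieldin complex of DNA end protection (1.14), GNB4, a G protein beta subunit (1.11), RAB11FIP1, an effector of the endosomal GTPase RAB11 (1.03), and ARMCX3 (1.02). Control levels placed them differently. GNB4 lay near the control in g3_4 (0.13 above it) and 1.24 above it in g2_1. After centring each array on its median SHLD1 and ARMCX3 did not pass (adjusted p = 0.0571 for both), nor did ARMCX3 without the block (0.161). SHLD1 and ARMCX3 were near the control in g2_1 and 0.90 and 1.12 below it in g3_4.

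Among genes higher in g3_4 the largest difference was in ATP12A, which encodes the catalytic subunit of a potassium-transporting proton pump. It read 5.78, 5.60 and 5.69 in g2_1, 8.20, 8.40 and 8.34 in g3_4 and 5.22, 4.65 and 5.04 in the control. It was 6.16-fold higher in g3_4 than in g2_1, a log2 difference of -2.62 (SE 0.09, adjusted p = 0.00175 in limma). LRRN3, a neuronal leucine-rich repeat membrane protein, read 7.27, 7.95 and 8.31 in g2_1, 10.51, 10.27 and 10.57 in g3_4 and 6.84, 6.66 and 6.43 in the control. Both clones were above the control on every array, and g3_4 was farther from it, as it was for RBPMS. That RNA-binding protein gene had a mean of 4.50 in the control, 6.25 in g2_1 and 8.39 in g3_4. The clones differed in it by -2.14 (SE 0.08, adjusted p = 0.00175).

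ALOX5AP, whose product presents arachidonic acid to 5-lipoxygenase for leukotriene synthesis, read 9.34, 8.99 and 9.16 in g2_1 and 11.30, 10.81 and 10.86 in g3_4. Its control arrays read 6.82, 8.70 and 8.65, with control array 1 apart from the others. The clones differed by -1.83 (SE 0.08, adjusted p = 0.00236 in limma). CD244, a receptor of the SLAM family known from natural killer cells, read 7.12, 5.85 and 6.12 in g2_1, 8.15, 7.14 and 7.52 in g3_4 and 3.91, 4.82 and 4.54 in the control. Its difference was -1.24 (SE 0.09, adjusted p = 0.0197), and without the block it did not pass (adjusted p = 0.378). LAIR1, an inhibitory collagen receptor, was lower in g2_1 by 1.21, 1.10 and 1.16 in the 3 pairs, a difference of -1.16 (SE 0.07, adjusted p = 0.0115, and 0.0739 without the block). LAIR2 and SLAMF1 were chosen after their values were seen. LAIR2, a soluble relative of LAIR1 in the leukocyte receptor cluster of chromosome 19, differed by -0.74 (adjusted p = 0.0346, and 0.105 without the block). SLAMF1, the self-ligand receptor CD150, was higher in g2_1 by 0.82 (SE 0.08, adjusted p = 0.0328) from a control mean of 10.41, which was above both clones. So of these SLAM family receptors CD244 was higher in g3_4 and SLAMF1 in g2_1.

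ARHGDIB, a gene known for its high expression in blood cells, read 4.93, 4.77 and 5.11 in g2_1 and 7.27, 6.99 and 7.20 in g3_4. Its control arrays read 7.61, 5.17 and 5.52 and gave no single level to which either clone could be set. The difference between the clones was -2.22 (SE 0.08, adjusted p = 0.00175 in limma). MAOA, the monoamine oxidase A gene, read 5.27, 4.98 and 5.17 in g2_1, 7.24, 6.89 and 6.90 in g3_4 and 11.61, 11.43 and 11.32 in the control. Both clones lay below the control on every array, g2_1 the farther, with a difference of -1.87 (SE 0.08, adjusted p = 0.00236). IL1R2, the decoy receptor of interleukin 1, had the same order, with means of 8.73 in g2_1, 9.91 in g3_4 and 12.12 in the control and a difference of -1.18 (SE 0.10, adjusted p = 0.0275). The other called genes higher in g3_4 were HLA-DRB1, described below with its family, the pseudogene CNTNAP3P2 (-1.36), the tripartite motif gene TRIM29 (-1.18, adjusted p = 0.153 without the block), the selenium carrier SELENOP (-1.15), FAM30A (-1.11), the B cell receptor signalling phospholipase PLCG2 (-1.06) and 1 transcript cluster of chromosome 1 with no symbol (-1.18). CNTNAP3P2 has near-identical relatives, so its probes may read more than 1 locus.

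**Figure D2:**
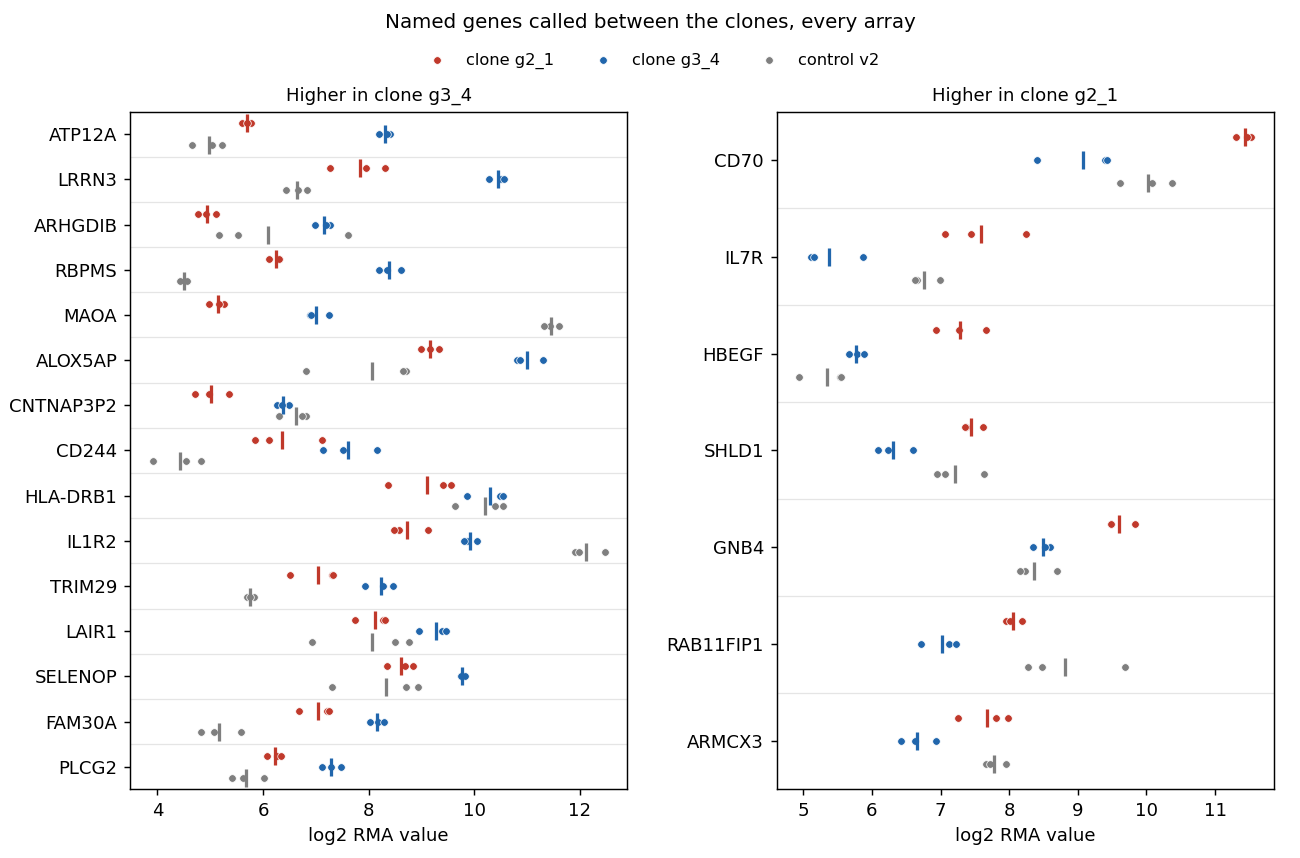
Log2 RMA value (horizontal axis) of the 22 called transcript clusters with a symbol, 1 point an array and a vertical tick at the mean of 3, for clone g2_1 (red), clone g3_4 (blue) and control (grey). Red and blue points do not overlap in any of them, while the grey points lie between the clones for CD70 and IL7R, beyond g3_4 for MAOA and IL1R2 and beyond g2_1 for ATP12A, LRRN3 and RBPMS.

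The control means place each difference, as a description with no test. In 14 of the 23 called transcript clusters both clone means lay on 1 side of the control mean by more than 0.25 of the difference. In 10 of the 14 both clones passed against the control, and in ALOX5AP, SELENOP, RAB11FIP1 and HBEGF the nearer clone did not. In 11 of these g3_4 was farther, among them ATP12A, LRRN3, RBPMS, ALOX5AP and CD244, and in 3 g2_1 was farther, which were MAOA, IL1R2 and HBEGF. In 3 the control mean lay near g3_4, within 0.25 of the difference, and these were GNB4, HLA-DRB1 and CNTNAP3P2. In 3 it lay near g2_1, which were LAIR1, SHLD1 and ARMCX3. For CD70, IL7R and ARHGDIB it lay between the clones. Without control array 1, which stood apart, the place of 6 changed. The control mean of LAIR1 (8.64) and SHLD1 then lay between the clones, that of ARHGDIB and SELENOP near g2_1, and in GNB4 and CNTNAP3P2 both clones were on 1 side with g2_1 farther. Of the 66 that passed with no limit on the difference, 22 had both clones on 1 side with g3_4 farther and 17 with g2_1 farther. In 12 the control was near g3_4, in 5 near g2_1 and in 10 between.

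One family of genes stood together among those lower in g2_1. Class II molecules of the major histocompatibility complex (MHC) present peptides to helper T cells. They are pairs of an alpha and a beta chain (HLA-DR, DQ and DP), loaded with the help of the invariant chain CD74 and of HLA-DM, and their genes are switched on together by the coactivator CIITA, which is held at their promoters by a complex of RFX proteins, CREB and NF-Y on conserved boxes. B cells express them constitutively, and Hodgkin cells often lower them.

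Of 15 measured genes on the list of MHC class II genes and their regulators, 7 passed, all lower in g2_1, and none was higher in it, against 0.196% and 0.12% of all transcript clusters. The median difference of the list was -0.61, against 0.00 over all named genes, and 14 of 15 were lower in g2_1. The members that passed were HLA-DRB1, HLA-DQA1, HLA-DQB1, CIITA, HLA-DRA, CD74 and HLA-DRB5. Their calls rested on the block. Without it none of the 7 passed (adjusted p = 0.243 to 0.756 in limma). Array 1 was the lowest of the 3 for all 7 genes in both clones. Set against the control, the list had a median of -0.68 in g2_1 and -0.03 in g3_4.

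The promoters of the members that passed are shown for the box they share. Of the 7, 5 had an entry among RefSeq promoters (build GRCh38.p14), and bases 140 to 11 before the start are printed 5′ to 3′ on the strand of the gene. Capitals mark ATTGG or its reverse complement CCAAT, the core of the Y box to which NF-Y binds.
HLA-DRB1 chr6:32589859-32589988 (minus strand): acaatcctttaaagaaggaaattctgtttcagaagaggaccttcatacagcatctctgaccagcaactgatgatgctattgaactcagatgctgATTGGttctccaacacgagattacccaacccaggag
HLA-DRB5 chr6:32530298-32530427 (minus strand): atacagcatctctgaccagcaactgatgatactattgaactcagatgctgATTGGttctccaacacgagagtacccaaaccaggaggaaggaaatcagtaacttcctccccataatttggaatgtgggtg
HLA-DQA1 chr6:32637266-32637395 (plus strand): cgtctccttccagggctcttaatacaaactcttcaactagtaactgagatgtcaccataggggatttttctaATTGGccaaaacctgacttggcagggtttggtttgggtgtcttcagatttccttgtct
HLA-DQB1 chr6:32666668-32666797 (minus strand): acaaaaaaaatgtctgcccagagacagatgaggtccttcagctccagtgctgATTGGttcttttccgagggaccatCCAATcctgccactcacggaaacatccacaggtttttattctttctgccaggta
CD74 chr5:150412921-150413050 (minus strand): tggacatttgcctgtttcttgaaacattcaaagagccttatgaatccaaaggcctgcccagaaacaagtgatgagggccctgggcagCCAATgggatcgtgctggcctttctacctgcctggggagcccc
Each of the 5 held at least 1 copy in this window. In the whole entry of 300 bases, 9 of the 10 measured class II genes with an entry, CD74 included, held ATTGG on either strand. Of 35116 promoter entries 34.6% did. A gene counted where any of its entries held the motif, while 34.6% is a share of single entries, so the units are unlike. A match of 5 letters is a description and no evidence of a bound site.

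The chains of the peptide-binding molecules come first. HLA-DRB1 read 8.36, 9.40 and 9.55 in g2_1, 9.86, 10.49 and 10.55 in g3_4 and 9.64, 10.40 and 10.54 in the control. In g3_4 it was at the level of the control array of the same number, and in g2_1 it was lower on every array of that number. The 3 pairs were alike in direction, with a difference of -1.20 (SE 0.11, adjusted p = 0.0328 in limma, 0.312 without the block). HLA-DRA, the alpha chain, read 10.55, 11.25 and 11.40 in g2_1, 11.41, 11.93 and 12.02 in g3_4 and 11.71, 12.13 and 12.15 in the control. Its pairs gave -0.86, -0.68 and -0.62. HLA-DRB5, another beta chain gene, differed by -0.61, but it is a near-identical copy of HLA-DRB1 and their probes may read both.

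The DQ chains followed. HLA-DQA1 read 7.65, 8.67 and 8.90 in g2_1 and 8.53, 9.56 and 9.56 in g3_4. The clones overlapped while each pair differed, by -0.88, -0.89 and -0.66. Its control arrays read 9.67, 9.99 and 10.16, above every array of both clones. Against the control g3_4 had -0.72, which did not pass (adjusted p = 0.211 in limma). HLA-DQB1 differed by -0.75 (SE 0.08, adjusted p = 0.0477 in limma). For the DP chains the differences were -0.63 for HLA-DPB1 (adjusted p = 0.0701) and -0.46 for HLA-DPA1 (adjusted p = 0.108), and neither passed.

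CD74 read 11.25, 11.73 and 11.66 in g2_1 and 11.99, 12.40 and 12.34 in g3_4, pairs of -0.74, -0.67 and -0.68. The control read 12.22, 12.45 and 12.49, just above g3_4. CIITA, the coactivator, read 7.79, 8.57 and 8.71 in g2_1 and 8.56, 9.24 and 9.51 in g3_4, pairs of -0.77, -0.67 and -0.80. Its mean was 9.08 in the control and 9.10 in g3_4. The peptide loading gene HLA-DMA differed by -0.37 (adjusted p = 0.176) and the B cell regulators of loading HLA-DOA and HLA-DOB by -0.20 and -0.24, none of which passed. Among the RFX subunits RFX5 differed by -0.23, RFXANK by -0.01 and RFXAP by 0.13, and none passed. In MHC class I, which presents peptides to cytotoxic T cells, 0 of 16 measured genes passed in limma (1 at an unadjusted p under 0.05), and the median difference was -0.02. Over all transcript clusters 0.316% passed and 11.1% had an unadjusted p under 0.05, so these counts do not set class I apart.

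**Figure D3:**
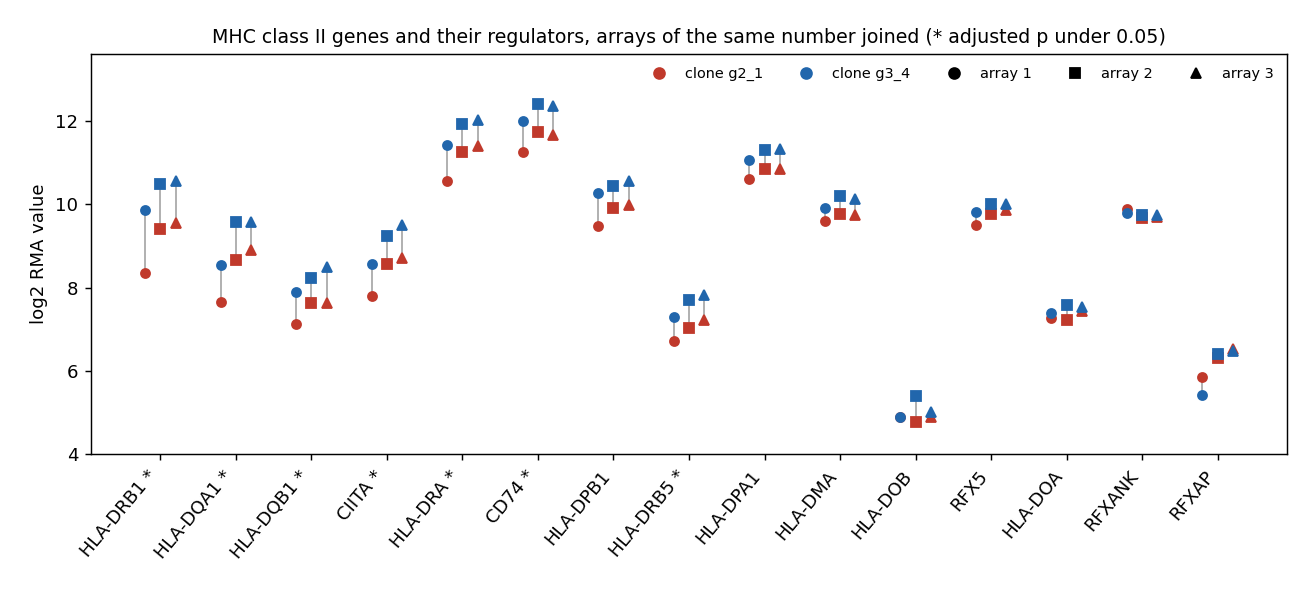
Log2 RMA values (vertical axis) of the 15 measured MHC class II genes and regulators, with clone g2_1 in red, clone g3_4 in blue, the array number as the symbol and a line joining arrays of the same number. In the 7 marked genes red lies below blue in every pair, and the 3 pairs rise and fall together across genes.

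Genes were ordered along each chromosome by RefSeq, 9216 genes with a level at or above the median were kept, and the median difference was taken in windows of 15 neighbours. Merged windows past 0.3 in either direction gave 5 stretches. Over all 9216 genes the median was 0.01 and the quartiles -0.07 and 0.09, and 14% had arrays that did not overlap.

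The longest stretch was the end of the long arm of chromosome 3. It comprised 77 genes from SLC9A9 to EIF2B5 with a median of 0.35 and, 6 genes further on, 48 genes from EIF4G1 to LMLN with a median of 0.32. The 3 pairs gave 0.37, 0.35 and 0.31 for the first stretch and 0.34, 0.31 and 0.28 for the second. From the start of the first to the last measured gene of the chromosome were 131 genes, 122 of them higher in g2_1, with a median of 0.32, and in 64.9% of them the clone arrays did not overlap. The 385 genes before it had a median of 0.01, with 13% not overlapping. Against the control the first stretch had a median of 0.38 in g2_1 and 0.03 in g3_4 and the second 0.55 and 0.25, beside 0.05 and 0.04 over all 9216 genes. Centring each array on its median moved the medians over all 9216 genes to 0.17 and 0.15, and those of the first stretch to 0.49 and 0.14.

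Of the 77 genes of the first stretch 4 passed, all higher in g2_1, and of the 48 genes of the second 0 did. Over all transcript clusters 0.12% passed with g2_1 higher. GNB4 (1.11, above) was one. PLD1, a phospholipase that makes phosphatidic acid, read 8.08, 8.37 and 8.46 in g2_1 and 7.33, 7.57 and 7.64 in g3_4, a difference of 0.79 (SE 0.07, adjusted p = 0.0313 in limma, 0.0795 without the block). PARL, a rhomboid protease of the inner mitochondrial membrane, differed by 0.66 (adjusted p = 0.0467, 0.0638 without the block), and TIPARP, a mono-ADP-ribosyltransferase induced by the aryl hydrocarbon receptor, by 0.59 (adjusted p = 0.0495, 0.0571 after centring). MFN1, which fuses mitochondrial outer membranes, had 0.68 and did not pass (adjusted p = 0.0828). In the second stretch the largest values were 0.60 for the ubiquitin adaptor UBXN7, 0.54 for ACAP2 and 0.53 for BCL6, the repressor of the germinal centre programme, and none passed. The quartiles of the 131 genes were 0.23 and 0.42.

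On chromosome 20 a stretch of 26 genes from TMEM230 to RALGAPA2 had a median of 0.30, and all 26 were higher in g2_1. The pairs gave 0.35, 0.22 and 0.30. SHLD1 (1.14) was the only 1 of the 26 that passed, where 0.316% of all transcript clusters did. SNAP25, a membrane fusion protein of secretory vesicles, had 0.63 (adjusted p = 0.0882). The median against the control was -0.01 in g2_1 and -0.28 in g3_4, and 0.10 and -0.17 after centring. Over all 9216 genes it was 0.05 and 0.04, and 0.17 and 0.15 after centring, so g3_4 lay farther below the median of all genes on both scales. The other 232 genes of chromosome 20 had a median of 0.15, with 203 of them higher in g2_1, and the 313 genes of chromosome 4 a median of 0.13, so smaller differences ran over both whole chromosomes.

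On chromosome 2 the 16 genes from ACP1 to ADAM17, which include the first measured gene of the short arm, had a median of -0.36, and 15 of 16 were lower in g2_1. The pairs gave -0.32, -0.38 and -0.33. ADI1, an enzyme of methionine salvage, read 8.88, 8.66 and 8.64 in g2_1 and 9.76, 9.47 and 9.55 in g3_4, a difference of -0.87 (SE 0.07, adjusted p = 0.0275 in limma). EIPR1, a tethering factor partner in endosomal traffic, differed by -0.82 (SE 0.10, adjusted p = 0.0478). The median against the control was -0.26 in g2_1 and 0.01 in g3_4, and -0.15 and 0.12 after centring. Over all 9216 genes the medians were 0.05 in g2_1 and 0.04 in g3_4, and 0.17 and 0.15 after centring. Beside these, g3_4 lay near the median of all genes on both scales and g2_1 lay below it. The next 27 windows had medians of -0.29 to -0.16, so lower values ran on past ADAM17. All 608 other genes of chromosome 2 had a median of 0.01.

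The fifth stretch was the MHC class II region, with 15 genes from HLA-DRA to HLA-DPB1 and a median of -0.37. The 9 class II genes in it had a median of -0.63, and the 6 other genes between them had a median of -0.03, with 3 of the 6 higher in g2_1. The clone arrays did not overlap in 7 of the 9 class II genes and in 0 of the 6 others, beside 14% of all 9216 genes. With so few genes, 0 of 6 is near that share. CD74 lies on chromosome 5 and CIITA on chromosome 16.

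**Figure D4:**
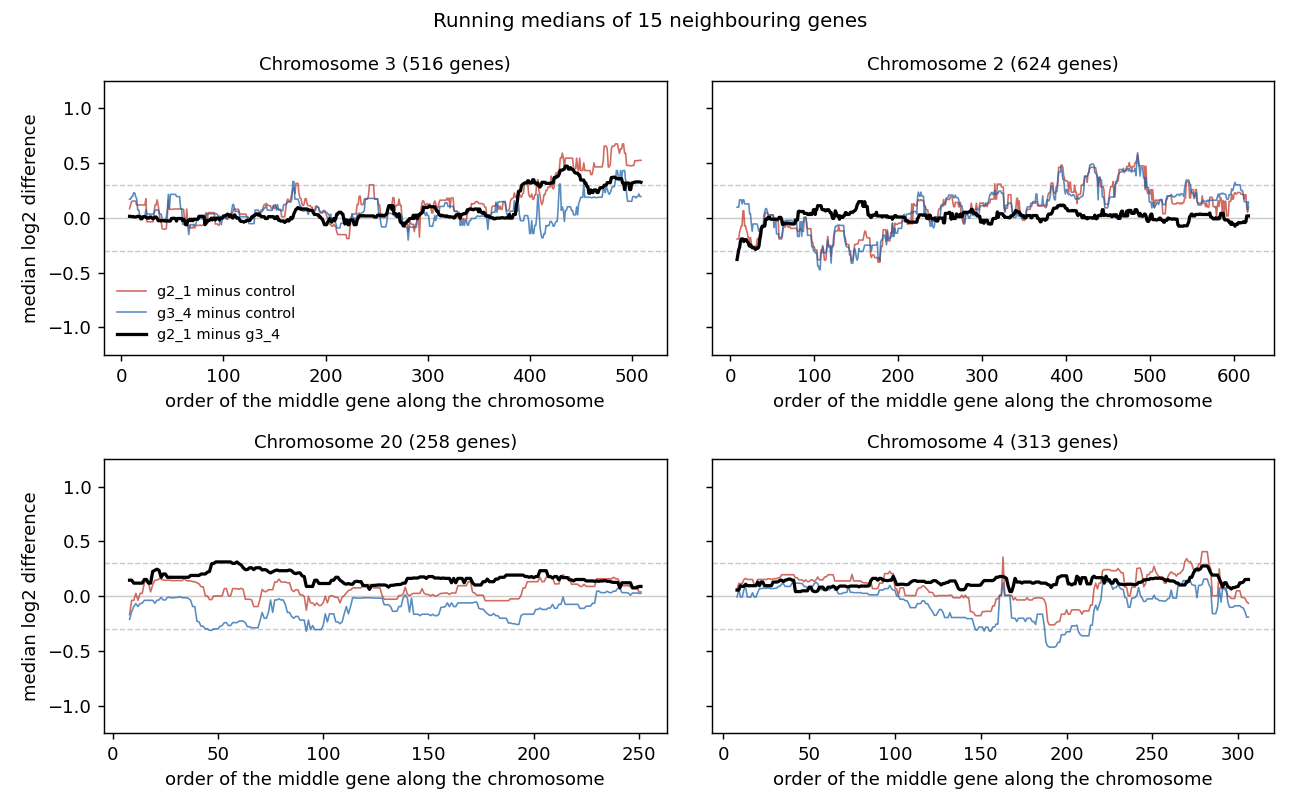
Median log2 difference in windows of 15 neighbouring genes (vertical axis) by the order of the middle gene along chromosomes 3, 2, 20 and 4 (horizontal axis), for g2_1 minus g3_4 (black) and each clone minus control (red and blue), with dashed lines at 0.3 and -0.3. The black line stays near 0 along chromosome 3 until the last 131 genes, dips at the start of chromosome 2 and lies above 0 along all of chromosomes 20 and 4.

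Beyond MHC class II, few members of the other gene lists passed. Over the 30 lists 695 of 809 entries were measured. In the TNF superfamily CD70 was the only ligand of 14 that passed, and 0 of 20 receptors did (5 at an unadjusted p under 0.05), where 0.316% and 11.1% of all transcript clusters did. LTB, the membrane partner of lymphotoxin alpha, had means of 6.89 and 6.77, and the receptor gene LTBR had 6.28 and 6.56 and a difference of -0.27 (adjusted p = 0.311). TNFSF10, which encodes the death ligand TRAIL and lies in the chromosome 3 stretch, had means of 11.77 and 11.33 and did not pass (adjusted p = 0.142). In the NF-kB pathway, which lymphotoxin receptors activate, 0 of 17 passed in limma and 2 had an unadjusted p under 0.05, near the 11.1% of all. TRAF1, an NF-kB target that is high in Hodgkin cells, had a difference of 0.52 (adjusted p = 0.108). The median of the pathway was 0.00.

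Of the B cell genes 1 of 29 passed, beside 0.316% of all transcript clusters. BACH2, a repressor of plasma cell differentiation, read 7.01, 7.12 and 7.35 in g2_1 and 6.30, 6.30 and 6.18 in g3_4, a difference of 0.90 (SE 0.11, adjusted p = 0.0494 in limma, 0.0621 after centring). CD38, an ectoenzyme of plasma cells and activated lymphocytes, read 5.60, 5.69 and 6.21 in g2_1 and 6.37, 7.21 and 7.10 in g3_4 and did not pass (adjusted p = 0.0911). Of 30 T and NK cell genes IL7R and CD244 passed, in opposite directions. The T cell receptor subunit genes CD3D, CD3E and CD3G, chosen after their values were seen, had means of 4.03 to 4.88 in the clones. Of the 30, 9 lay under the first quartile on all 6 clone arrays. Without IL7R and CD244 the summed level of the list, on the linear scale, was 10322 to 11493 on the g2_1 arrays and 9897 to 10309 on the g3_4 arrays. Its part in the differences of IL7R and CD244 was not tested. None of 27 myeloid genes passed, with 4 at an unadjusted p under 0.05 in limma, beside 11.1% of all. Among 28 Hodgkin cell genes 1 passed, which was CIITA, and 3 had an unadjusted p under 0.05 in limma, beside 0.316% and 11.1% of all.

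Interferon-stimulated genes, which respond to STAT signalling, had 0 of 30 past the threshold in limma. At an unadjusted p under 0.05, 12 were higher in g2_1 and 2 lower, against 5.78% and 5.33% of all transcript clusters, and the median was 0.15. The members with the largest values in each direction were chosen after these were seen. IFI44L had 0.60 (adjusted p = 0.0714) and IRF1 had -0.37 (adjusted p = 0.174). Genes of cholesterol synthesis had a median of 0.16 and metallothioneins 0.14. None passed in limma, with 8 of 18 and 2 of 10 at an unadjusted p under 0.05, beside 11.1% of all. Of the JAK-STAT genes 0 of 29 passed, with 7 at an unadjusted p under 0.05. Adhesion genes had 0 of 20 past the threshold and 7 at an unadjusted p under 0.05. Their largest value was -0.80 for the integrin gene ITGAL (adjusted p = 0.0797 in limma), which was chosen after its values were seen.

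Genes that often distinguish clones of a line were also counted. None of 39 cancer-testis genes, 22 imprinted genes, 15 protocadherin genes or 23 HOX genes passed in limma. At an unadjusted p under 0.05 there were 0, 3, 2 and 4 of them, beside 11.1% of all transcript clusters. Elsewhere HSPA4L, a chaperone of the HSP110 family, was higher in g2_1 by 0.78 (adjusted p = 0.0449, 0.217 without the block), and PIK3R6, a regulatory subunit of PI3K gamma, by 0.74 (adjusted p = 0.0478, 0.344 without the block). The other 10 lists cover fibroblast and endothelial markers, cytokines, the unfolded protein response, glycolysis, p53 targets and the cell cycle. They also cover apoptosis, immediate early genes, G protein-coupled receptors and drug metabolism. Of their 264 entries, 0 passed in limma and 42 had an unadjusted p under 0.05, beside 11.1% of all. Among the 42 were 9 of the 24 immediate early genes, 4 higher in g2_1 and 5 higher in g3_4.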

How the data were processed

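Total RNA of the 9 samples was measured on human Clariom S arrays after labelling 250 ng. Per the submitters' processing notes, RMA in Transcriptome Analysis Console 4.0 made the deposited log2 signals. RMA gives all arrays a like distribution, and low levels show compressed differences. Values are given to 2 decimals without a detection call, and scanner output was not used here. Precision is limited by the number of arrays.

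The 20893 transcript clusters were tested, and 555 unmapped rows were left out. A platform annotation gave 17705 of them 1 gene symbol and 3188 none. All 17705 matched RefSeq (GRCh38.p14) by gene ID. RefSeq was used for names, gene order and promoter sequences, since the build of the array design is not given in the sources used here.

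For the clones, limma 3.58.1 (R 4.3.3) was run on 6 arrays with the replicate number as a block, using lmFit and eBayes, two-sided, without trend or robust options. Deviations from the clone means correlated between same-numbered arrays of the clones (0.435, 0.191 and 0.310), and at -0.346 to 0.078 for other numbers, so the number was taken to pair the samples. Deviations from a mean cancel over the arrays of a clone. Positive values for same numbers therefore go with lower ones for other numbers, and the latter are not separate evidence for the pairing. Values against the control came from a fit of all 9 arrays without a block. The fits were tested on simulated data with known changes. Means are of 3 arrays, and SE is the moderated standard error.

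The genes, the 30 lists and the tests were chosen with earlier results of these data known. Named were LTA, up to 15 called genes in each direction whose clone arrays did not overlap, up to 3 members of a list in each direction that passed, members of some lists as values, and up to 6 members of each of the 4 largest stretches. Genes outside this rule are said to be chosen after their values were seen. Alternatives were the block, the arrays fitted, centring, quantile normalization, a filter on level, a variance trend, array weights, unmapped rows, and leaving out pairs.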

Additional observations from a re-analysis of the deposited data

Results flagged for a closer look

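For 4 genes that passed the test between the clones, all arrays of one clone lay above all control arrays and all arrays of the other below them. The differences of g2_1 minus g3_4 were tested in limma with the replicate block. CD70 differed by 2.35, with g2_1 1.41 above the control (SE 0.26) and g3_4 0.94 below it. IL7R differed by 2.21, with g2_1 0.83 above the control, which did not pass (adjusted p = 0.0825), and g3_4 1.38 below it. TRIM9, a brain-enriched ubiquitin ligase gene, differed by 0.76. ABLIM1, an actin-binding LIM protein gene, differed by -0.68, and here g3_4 was the clone above the control. For TRIM9 and ABLIM1 neither clone passed against the control (adjusted p = 0.0545 to 0.286). TRIM9 did not pass between the clones without the block (adjusted p = 0.201).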

How the results depend on the processing

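None of the 61 genes followed changed direction under the alternatives run, while of the 15 MHC class II list members 13 to 15 were lower in g2_1 when a pair was left out. The 23 calls (7 higher in g2_1 and 16 in g3_4) became 18 without the replicate block on 6 arrays, all 18 among the 23, and the 5 lost were CD244, HLA-DRB1, ARMCX3, TRIM29 and LAIR1. Without the block on 9 arrays there were 9 calls (4 and 5), and with the block on 9 arrays 15, of which 9 were higher in g3_4. All of these were among the 23. Leaving out any pair left 0 to 0 calls in limma with the block (0 to 0 higher in each clone), where 1 degree of freedom among arrays remains. Then 1570 to 1651 transcript clusters had an unadjusted p under 0.05, and the 23 kept their direction and were among them each time. Without the block, an alternative chosen after seeing the data, leaving out a pair gave 3 to 12 calls (0 to 3 higher in g2_1 and 3 to 9 in g3_4). With no limit on the difference 66 passed (25 and 41), and at a limit of 2 log2 units 6 did (2 and 4). A variance trend with robust estimation gave 29 calls but 686 at an adjusted p under 0.05, and the LTA difference between clones (0.60) then passed (adjusted p = 0.0196). Centring gave 21 calls, and quantile normalization, leaving out low levels, array weights and all rows gave 23 to 24. The MHC class II members that passed went from 7 to 0 without the replicate block, to 4 with it on 9 arrays, to 5 with centring, to 11 with the variance trend and to 0 without any 1 pair, with a median of -0.62 to -0.56 throughout. The stretches of neighbouring genes fell from 5 to 2 with windows of 25 genes (130 genes of chromosome 3 and 27 of chromosome 20), to 1 at a median of at least 0.4 (32 genes of chromosome 3) and to 2 with no filter on level (both on chromosome 3). Thus the stretch of chromosome 3 was found each time, and those of chromosomes 2 and 6 were not. The count of 14 with both clones on 1 side of the control was 13 to 16 under its alternatives. Of the 62 transcript clusters with a symbol that passed, 61 were followed through the alternatives, and the rule for naming genes left out the other. Of the 61, 29 passed without the block on 6 arrays, 11 without and 24 with the block on 9 arrays and 48 after centring.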

Other observations

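Some genes past the threshold belong to no list. They were chosen after their values were seen. ADA2, a secreted adenosine deaminase of myeloid cells, was low in the control (mean 5.09) and high in both clones, at 8.41 in g2_1 and 9.25 in g3_4. The clones differed by -0.84 (SE 0.10, adjusted p = 0.0478 in limma, 0.413 without the block). IGF1, an insulin-like growth factor, read 7.53, 7.66 and 7.77 in g2_1, 8.61, 8.35 and 8.54 in g3_4 and 6.86, 7.22 and 6.85 in the control. Its difference was -0.85 (adjusted p = 0.0478), and both clones lay above the control on every array. Without the block the next 3 genes did not pass (adjusted p = 0.417 for PTGER4, 0.243 for SAMSN1 and 0.114 for CLIC2). PTGER4, a receptor of prostaglandin E2, had means of 8.13, 8.85 and 9.80 in g2_1, g3_4 and control. SAMSN1, an adaptor that restrains B cell activation, had 4.70, 5.56 and 5.21. CLIC2, a chloride channel family member, had 5.30 and 4.67 beside 9.70 in the control, so both clones were far below it and g3_4 the lower.

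PALLD, an actin cross-linking protein gene, read 9.23, 9.21 and 9.18 in g2_1, 8.48, 8.35 and 8.36 in g3_4 and 6.35, 6.82 and 7.39 in the control, a difference of 0.81 (SE 0.07, adjusted p = 0.0313 in limma). DPYSL3, a microtubule and actin regulator of neurons, differed by 0.73, and its clone arrays overlapped although each pair had g2_1 higher. NEDD9, an adhesion scaffold, was lower in g2_1 by 0.66. Without the block neither passed (adjusted p = 0.778 for DPYSL3 and 0.478 for NEDD9). NBAS and TTC32, both on chromosome 2, were lower in g2_1, with differences of -0.93 and -0.99 and control levels above both clones.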
